A study of Mus musculus with 36 samples.

Results

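Serpins are a family of proteins with a shared fold, and the liver makes many of those found in blood. The family was taken here as every gene with a single annotated symbol that begins with Serpin, a clade letter from a to i and a number, with the probe set of the highest mean where a gene had several. This rule gave 54 of the 22180 genes measured: 20 of clade A, 25 of clade B, 2 each of clades F and I, and 1 each of clades C, D, E, G and H. The rule used names only, and no measured value other than the mean that chose between the 2 probe sets of Serpinb9b. Serpina3c, Serpina3k, Serpina3m and Serpine2 were not analysed here. RNA came from livers of C57BL/6 mice kept in 12 h of light and 12 h of dark and taken every 4 h from ZT 0 to ZT 20, where ZT is zeitgeber time in hours. The TB mice had the genotype label KrasLSL-G12D;p53fl/fl and lung adenocarcinoma, and the other mice are labelled WT. The labels do not say how the TB alleles were recombined or give the sex and age of the mice. Each of the 12 groups of genotype and ZT held 3 arrays, 18 for TB and 18 for WT. Since no label says that replicates were separate mice, each p-value refers to the spread among these arrays, part of which may be technical.

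Most serpins inhibit serine proteases by a suicide mechanism. The protease cuts an exposed loop of the serpin, the loop folds into the body of the protein, and the protease is dragged along and trapped in a distorted, inactive state. Hepatocytes secrete inhibitors of leukocyte elastase, of thrombin and other clotting factors, of plasmin and of the first complement component. A few relatives have lost inhibition and carry hormones or assist protein folding, and clade B serpins mostly stay inside cells, where they guard against leaked granule proteases.

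The liver identity of the samples was plain, with Alb between 11760 and 12890 intensity units in TB arrays and between 11320 and 12940 in WT arrays. Array medians lay between 36.3 and 43.3 intensity units. Beside the groups, the arrays fell into 2 sets, found from probe sets without a gene symbol: 12 arrays, 1 in each group, formed the smaller set and 24 the larger. The first principal component, whose sign gave the split, held 28.6% of the variance of those probe sets within groups. Membership followed the replicate number alike in TB and WT: the smaller set took replicate 3 at ZT 0 and 12, replicate 1 at ZT 4 and 16, and replicate 2 at ZT 8 and 20. The labels do not name the split, and values within each set stand beside the results below. Skeletal muscle RNA stood out in 1 array: Ttn was at most 30.2 intensity units in TB arrays and 111500 in WT ZT 12 replicate 3. In TB ZT 0 replicate 1 the male-biased genes Mup20, Hsd3b5 and Elovl3 were at 419, 4.54 and 38.9 intensity units, each the lowest of all 36 arrays. Of other sex-biased genes, Xist was at 20.8 there, with TB arrays from 20.5 to 35.7, and Cyp2b9 at 1122, the highest of the TB arrays. Hsd3b5 was also low in TB ZT 8 replicate 1 and WT ZT 12 replicate 1, at 49.4 and 111. In these arrays Cyp2b9 was at 545 and 1848, and Mup20 at 4910 and 6224. In TB ZT 0 replicate 3, Cyp2b9 was at 1016 with Hsd3b5 at 1174. Whether the sample of TB ZT 0 replicate 1 differed in sex was not tested. In bulk liver, fewer cells of a type and less RNA per cell cannot be told apart.

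The serpins covered almost the whole range of the array. The 17 members with a mean over 200 intensity units belonged to clades A, C, D, F and G, whose products are mostly secreted, and included the pseudogene Serpina4-ps1. Another 23 members were among the 7393 dimmest genes, 16 of them in clade B. The files hold no detection call, so whether these low probe sets stood above background was not tested. Serpina1a to Serpina1e are closely related copies, as are many of the Serpina3 and Serpinb9 relatives, and a probe set of one copy may read RNA of another.

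No serpin gene passed the test for a genotype difference, taken as the mean over the 6 ZT of TB minus WT (limma, Benjamini-Hochberg over all genes, threshold 0.05). The background was low too: 39 of all genes passed, or 0.176%. At an unadjusted p under 0.05 there were 9 serpins, 4 higher and 5 lower in TB, or 16.7% of the family against 11% of all genes. By direction, 5.69% of all genes were higher and 5.35% lower at that p. The 4 higher serpins were Serping1, Serpina3n, Serpina11 and Serpina7, and the 5 lower ones, Serpinb1a, Serpinb6c, Serpinb1b, Serpinb9d and Serpinb8, were all of clade B. Other settings did call serpins. Serpina11 and Serping1 passed with the array set as a block and in the larger set only, and Serpina11 passed with same-numbered TB and WT arrays of a ZT paired, where 59 genes of the table did. Leaving out single arrays gave 0 to 3 serpins, and leaving out the muscle-bearing array and TB ZT 0 replicate 1 together gave 0. Over the family 32 of 54 members were higher in TB, as were 11943 of all 22180 genes. The median difference was 0.02 log2 for the family, against 0.01 log2 for all genes. The serpin count was 27 after quantile normalization and 25 with each array centred on its median, so its direction depended on the scaling.

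**Figure D1:**
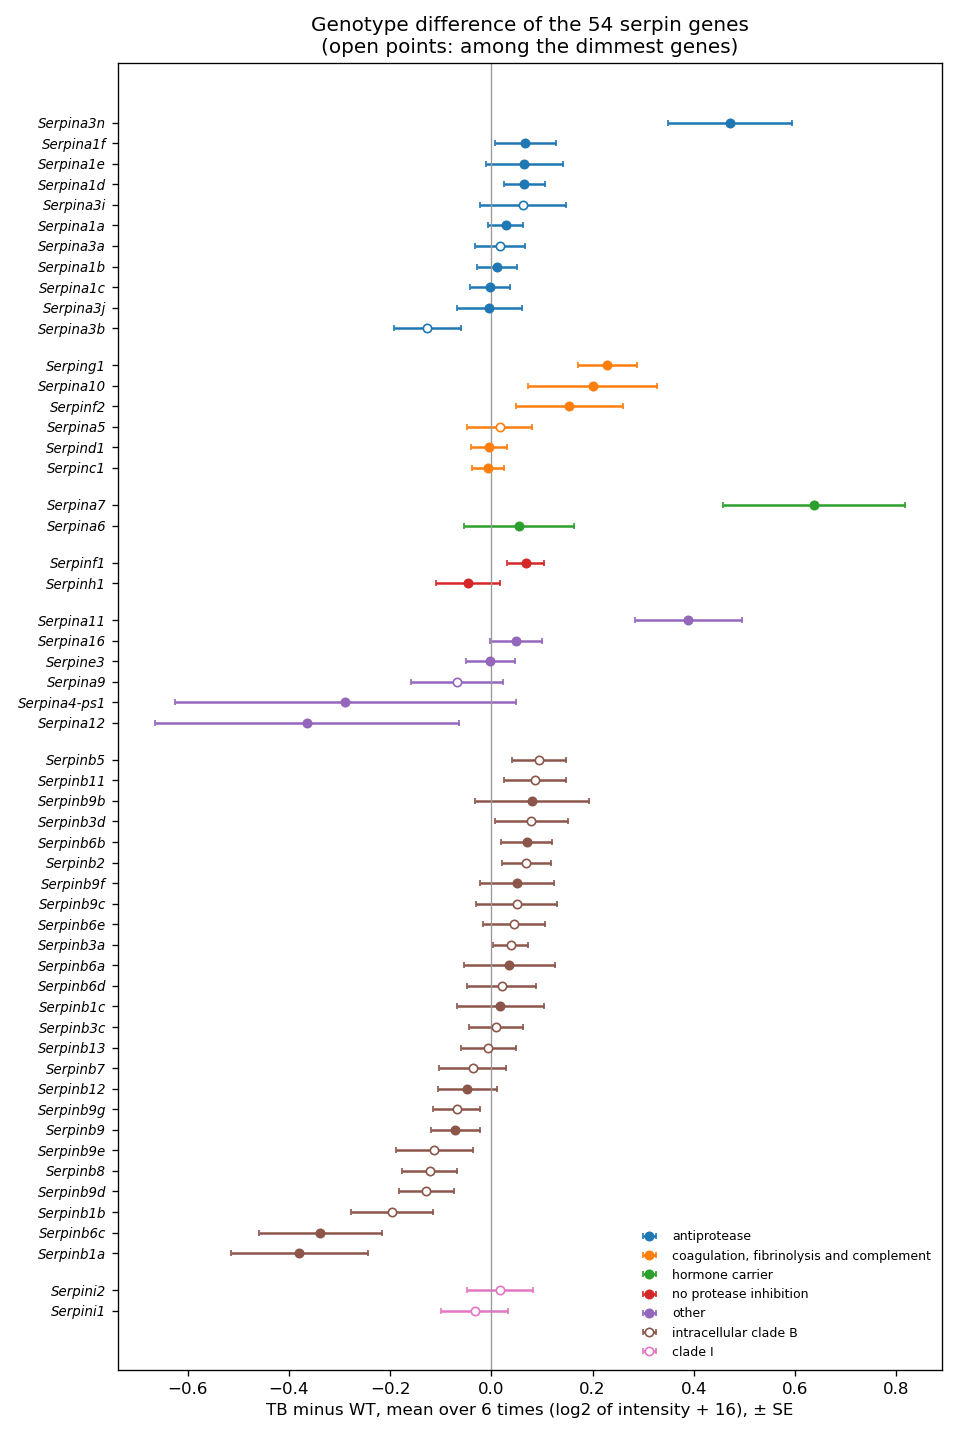
TB minus WT difference of each of the 54 serpin genes as the mean over 6 ZT, on the log2(intensity + 16) scale with its standard error, grouped by role. Open points mark members among the 7393 dimmest genes. Differences run from -0.38 (Serpinb1a) to 0.64 (Serpina7), and most members lie near 0.

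Among the antiproteases of clade A, Serpina3n stood apart. It is an inducible inhibitor and the mouse relative of human alpha-1-antichymotrypsin. Its probe set ranged from 2726 over a median of 4094 to 6937 intensity units in TB arrays, and from 2183 over a median of 2631 to 6485 in WT arrays. All 3 TB arrays lay above all 3 WT arrays at ZT 4, ZT 8 and ZT 16, a separation that 4.8%, 3.54% and 7.98% of all genes showed at these times and 0.591% at 3 or more ZT. At ZT 0 and ZT 12 the groups overlapped, with WT ZT 0 replicate 2 at 6084 intensity units and WT ZT 12 replicate 1 at 6485. The difference was 0.47 ± 0.12 log2 (SE), or 1.39-fold, with an adjusted p of 0.115 (limma). It was positive at 6 of 6 ZT in the smaller array set, at 0.53 log2, and at 5 of 6 in the larger set, at 0.44 log2. Leaving out WT ZT 0 replicate 2, WT ZT 12 replicate 1 or TB ZT 8 replicate 2 each brought it past the threshold, with adjusted p of 0.0465, 0.0158 and 0.0358. Those are the high WT arrays above and the lowest TB array at ZT 8, at 3002 intensity units. Of 36 fits that each left out 1 array only these 3 passed, and the adjusted p reached 0.205 (limma).

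The alpha-1-antitrypsin copies, whose human counterpart is the main inhibitor of neutrophil elastase in plasma, were abundant and none was called. Serpina1c ranged from 7013 over a median of 7849 to 8857 intensity units in TB arrays, and from 6964 over a median of 8061 to 8803 in WT arrays. Its difference of -0.0026 log2 had a 95% interval from -0.08 to 0.08. The intervals of Serpina1a, Serpina1b and Serpina1d all lay between -0.07 and 0.15 log2. Serpina1e varied more, from 3092 to 6313 intensity units in TB arrays and from 3579 to 6143 in WT arrays, with a difference of 0.07 ± 0.08 log2 (SE). The other 5 measured antiproteases, Serpina1f, Serpina3a, Serpina3b, Serpina3i and Serpina3j, had means between 10.9 and 48.8 intensity units and none was called.

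Promoters of the copies were compared in pairs, at the shift that matched most bases and with no gaps. The share of identical positions ran from 64.8% for Serpina1b with Serpina1d to 95.9% for Serpina1a with Serpina1e, and the 4 pairs of Serpina1b lay between 64.8% and 78.6%. One of the more alike pairs is shown, Serpina1c (chr12:103904901-103905200, minus strand) with Serpina1e (chr12:103956848-103957147, minus strand), from 250 bases before to 50 after the start of each gene (RefSeq, GRCm38.p6). With Serpina1e shifted by 51 bases, the 2 windows had the same base at 237 of 249 overlapping positions, or 95.2%. Capitals mark the longest run that both share, of 75 bases.
Serpina1c: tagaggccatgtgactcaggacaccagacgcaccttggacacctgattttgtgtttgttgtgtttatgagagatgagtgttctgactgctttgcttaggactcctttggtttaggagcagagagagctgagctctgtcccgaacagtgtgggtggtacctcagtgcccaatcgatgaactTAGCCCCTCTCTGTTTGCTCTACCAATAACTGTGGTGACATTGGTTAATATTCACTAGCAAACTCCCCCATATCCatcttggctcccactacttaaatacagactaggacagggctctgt
Serpina1e: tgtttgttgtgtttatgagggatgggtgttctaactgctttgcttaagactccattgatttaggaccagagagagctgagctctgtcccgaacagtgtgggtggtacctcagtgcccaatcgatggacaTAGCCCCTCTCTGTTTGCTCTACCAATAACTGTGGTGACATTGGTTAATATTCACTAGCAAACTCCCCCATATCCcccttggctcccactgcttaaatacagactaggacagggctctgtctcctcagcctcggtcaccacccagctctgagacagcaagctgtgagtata

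The serpins that act on clotting, clot removal and complement differed in how steady they were. Serpinc1, antithrombin, ranged from 4354 over a median of 4860 to 5272 intensity units in TB arrays, and from 4203 over a median of 4930 to 5091 in WT arrays. Serpind1, heparin cofactor II, ranged from 2838 over a median of 3445 to 3761 intensity units in TB arrays, and from 3085 over a median of 3440 to 3831 in WT arrays. The groups of Serpinc1 overlapped at every ZT, and those of Serpind1 at every ZT but 16, where TB read 3386 to 3567 and WT 3169 to 3332. The 95% interval of the difference over all ZT ran from -0.07 to 0.06 log2 for Serpinc1 and from -0.08 to 0.07 log2 for Serpind1.

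Serping1 encodes C1 inhibitor, which blocks C1r, C1s and plasma kallikrein. It ranged from 3643 over a median of 4437 to 5134 intensity units in TB arrays, and from 3074 over a median of 3722 to 4883 in WT arrays. All TB arrays lay above all WT arrays at ZT 4, where TB read 4248 to 4451 and WT 3576 to 3896, and at ZT 16, where TB read 4456 to 5016 and WT 3226 to 4028. The difference was 0.23 ± 0.06 log2 (SE), or 1.17-fold, with an adjusted p of 0.107 (limma). With the array set as a block the adjusted p was 0.0289, a setting under which 151 genes of the table passed. The larger set alone gave 0.20 log2 with an adjusted p of 0.0392, and the smaller set gave 0.29 log2. Serping1 also passed without WT ZT 12 replicate 1 (adjusted p = 0.022) or without TB ZT 8 replicate 2 (adjusted p = 0.0302). In the other fits that each left out 1 array it did not pass, with adjusted p up to 0.193 (limma).

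Serpina10, the partner of protein Z in the inhibition of factor Xa, ranged from 988 to 2306 intensity units in TB arrays and from 794 to 2785 in WT arrays. Its difference was 0.20 ± 0.13 log2 (SE). Serpinf2, alpha-2-antiplasmin, the fast inhibitor of plasmin, ranged from 2380 to 4274 intensity units in TB arrays and from 1628 to 4059 in WT arrays, with a difference of 0.15 ± 0.11 log2 (SE). The lowest array of both genes, and of Serpina11 and Serping1, was WT ZT 12 replicate 3, the one with muscle RNA. Serpina5, the protein C inhibitor, was among the 7393 dimmest genes with a mean of 20.0 intensity units.

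The 2 hormone carriers were both abundant. Serpina7, thyroxine-binding globulin, ranged from 345 over a median of 869 to 1762 intensity units in TB arrays, and from 197 over a median of 524 to 970 in WT arrays. Its difference of 0.64 ± 0.18 log2 (SE), or 1.56-fold, was the largest of the family and had an adjusted p of 0.148 (limma). It was positive at 6 of 6 ZT, as for 5 serpins (9.26%) and 4.06% of all genes. Only at ZT 4 did the arrays separate, with 1055 to 1762 intensity units in TB and 390 to 970 in WT. Serpina6, corticosteroid-binding globulin, ranged from 1619 over a median of 2775 to 4504 intensity units in TB arrays, and from 1492 over a median of 2539 to 3722 in WT arrays. Its genotype difference was 0.05 ± 0.11 log2 (SE).

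Serpina11, a clade A gene transcribed in liver, ranged from 420 over a median of 634 to 922 intensity units in TB arrays, and from 273 over a median of 477 to 662 in WT arrays. The groups overlapped except at ZT 16, with 623 to 773 intensity units in TB and 368 to 565 in WT. The difference was 0.39 ± 0.11 log2 (SE), or 1.31-fold, positive at 6 of 6 ZT, with an adjusted p of 0.129 (limma). The adjusted p was 0.0228 with the array set as a block and 0.0305 with arrays paired by ZT and replicate number. The smaller set gave 0.41 log2, and the larger set 0.38 log2 with an adjusted p of 0.0176. Serpina11 also passed without WT ZT 12 replicate 1 (adjusted p = 0.0383) or without TB ZT 8 replicate 2 (adjusted p = 0.0248). In the other fits that each left out 1 array it did not pass, with adjusted p up to 0.24 (limma).

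**Figure D2:**
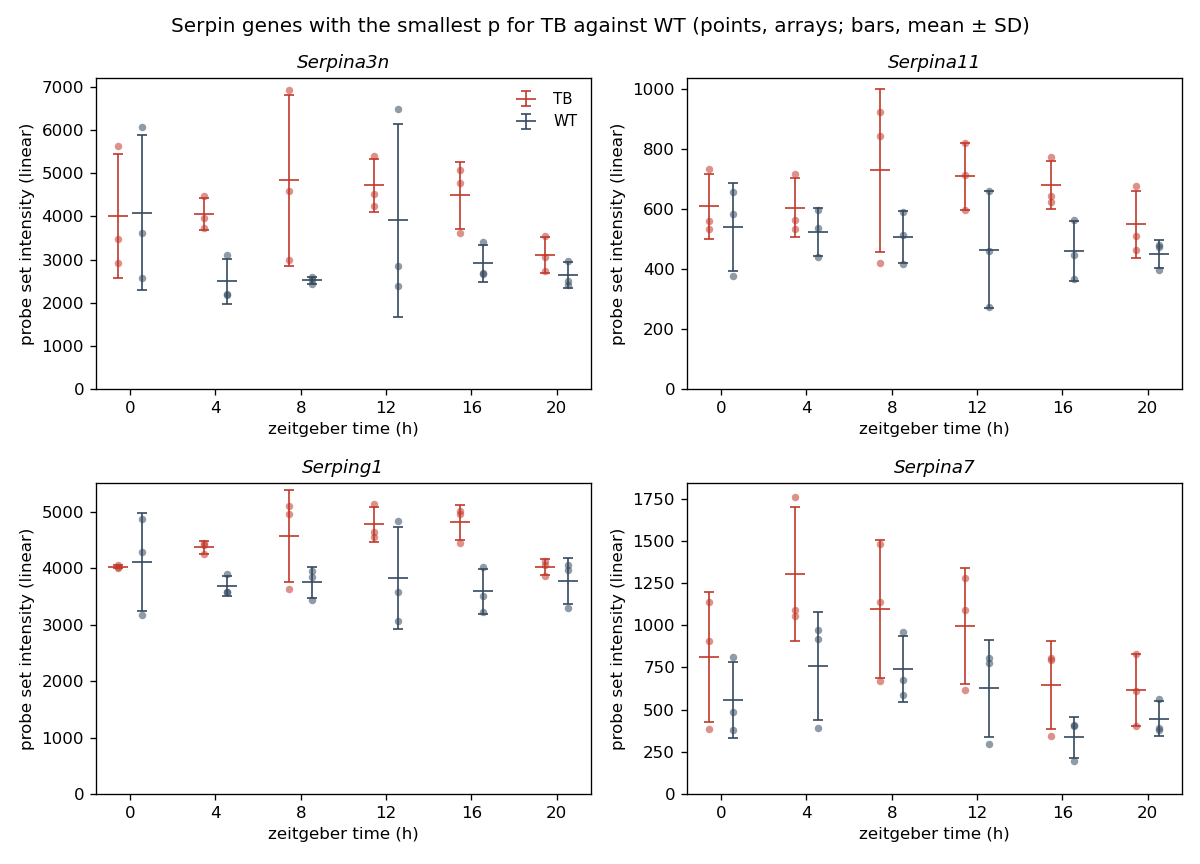
Intensity of Serpina3n, Serpina11, Serping1 and Serpina7 in every array by ZT, TB left of WT, with the mean and SD of 3 arrays per group. Serpina3n separates at ZT 4, 8 and 16, and the high WT arrays at ZT 0 (6084) and ZT 12 (6485) overlap the TB arrays there.

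Serpina12 and Serpina4-ps1 differed more between replicates than between genotypes. Serpina12 encodes vaspin, an inhibitor known from fat tissue, and ranged from 11.3 over a median of 264 to 471 intensity units in TB arrays, and from 41.6 over a median of 336 to 489 in WT arrays. Serpina4-ps1 ranged from 41.9 over a median of 1061 to 3423 intensity units in TB arrays, and from 560 over a median of 1552 to 3118 in WT arrays. TB ZT 0 replicate 1, the array lowest in male-biased genes, was lowest for both. Their SD within groups was 0.99 and 1.11 log2, against a median of 0.18 log2 for all genes and 0.07 log2 for Serpinc1. The 95% interval of the genotype difference of Serpina12 ran from -0.98 to 0.25 log2. The part of male-biased expression in these values was not tested. Serpina9 and Serpina16, with means of 20.0 and 34.9 intensity units, differed by -0.07 and 0.05 log2 and were not called.

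Serpinf1 and Serpinh1, which like the hormone carriers lack protease inhibition, were not called for the genotype difference. Serpinf1, pigment epithelium-derived factor, differed by 0.07 ± 0.04 log2 (SE), and Serpinh1, the collagen chaperone of the endoplasmic reticulum, by -0.05 ± 0.06 log2 (SE). Serpini1, neuroserpin, and Serpini2 were among the dimmest genes with means of 15.1 and 21.8 intensity units, and neither was called.

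Clade B was dim in these livers, with the highest mean at 85.1 intensity units for Serpinb9. Of its 25 members, 14 were higher and 11 lower in TB and none was called. Serpinb1a, an intracellular inhibitor of neutrophil elastase and cathepsin G, ranged from 21.6 over a median of 70.2 to 134 intensity units in TB arrays, and from 54.9 over a median of 80.9 to 221 in WT arrays. Serpinb6c ranged from 6.25 over a median of 30.6 to 45.2 intensity units in TB arrays, and from 18.6 over a median of 41.8 to 79.5 in WT arrays. Their differences were -0.38 ± 0.14 log2 and -0.34 ± 0.12 log2 (SE), with adjusted p of 0.262 and 0.267 (limma). For Serpinb1b, Serpinb9d and Serpinb8, all among the dimmest genes, the differences were -0.20, -0.13 and -0.12 log2, with adjusted p from 0.342 to 0.385. The differences of the other 20 clade B genes lay between -0.11 and 0.09 log2. The neutrophil list, whose RNA could carry clade B transcripts, summed to between 277 and 412 intensity units over its 9 genes in TB arrays, and to between 257 and 419 in WT arrays. The macrophage list of 8 genes summed to between 1051 and 2475 in TB arrays and to between 760 and 2385 in WT arrays, and its part in the serpin values was not tested.

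No serpin was called at any single ZT, where 1 gene of the table (0.00451%) passed at ZT 8 and none at the other times (limma). At an unadjusted p under 0.05 there were 5, 3, 4, 5, 6 and 2 serpins from ZT 0 to ZT 20, against 4.74%, 3.26%, 5.3%, 7.41%, 5.38% and 1.81% of all genes. As shares of the family these are 9.26%, 5.56%, 7.41%, 9.26%, 11.1% and 3.7%. At ZT 8 these were Serpina3n at 0.85 ± 0.30 log2 and Serpine3 at 0.31 ± 0.12 log2, with Serpinb8 at -0.39 ± 0.13 log2 and Serpinb9 at -0.28 ± 0.12 log2 (SE). Nor was any serpin or any other gene called for a dependence of the genotype difference on ZT. There, 3 serpins (5.56%) had an unadjusted p under 0.05, against 2.48% of all genes. They were Serpine3, Serpinb9 and Serpinb6b, each with an adjusted p of 1 (limma F test).

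Daily rhythm was tested by fitting a 24 h cosine to each genotype. In TB livers 2 serpins (3.7%) were rhythmic, against 4.95% of all genes, and in WT livers 3 (5.56%), against 6.45%. Serpina6 was the only member called in both genotypes, which 2.68% of all genes were. Its mean intensity in TB livers was 2065, 2185, 2779, 3585, 3033 and 2471 from ZT 0 to ZT 20. In WT livers it was 1830, 1943, 3004, 3114, 3009 and 2485. The gene thus stood lowest at the start of the light phase and highest around the start of the dark phase in both genotypes. Corticosterone, its ligand, is known to peak around the start of the dark phase in nocturnal mice.

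The fitted amplitude of Serpina6, the height of the cosine above its mean, was 0.39 ± 0.10 log2 with a peak at ZT 13.15 in TB livers (adjusted p = 0.0467), and 0.43 ± 0.10 log2 with a peak at ZT 12.97 in WT livers (SE; adjusted p = 0.018, limma F test). That is a peak 1.72 times the trough in TB and 1.82 times in WT. The TB call was close to the threshold. It was lost with a pseudocount of 1, quantile normalization, median centring or the replicate number as a block, with adjusted p from 0.0548 to 0.0657, and at 0.0925 without the muscle-bearing array and TB ZT 0 replicate 1. Of 36 fits that each left out 1 array it held in 16. In WT it was lost without WT ZT 0 replicate 1 or 2. A 6-level time factor in place of the cosine called it in neither genotype. Serpina6 differed between the array sets by 0.53 ± 0.06 log2 (SE), smaller minus larger, with means of 3279 and 2298 intensity units. In the larger set alone its amplitude was 0.45 log2 in TB and 0.49 log2 in WT, with adjusted p of 0.000707 and 0.000203. The smaller set, with 1 array per group, gave amplitudes of 0.31 log2 in TB and 0.31 log2 in WT.

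Serpine3 was called in TB livers at low intensity. Its means were 32.5, 35.4, 51.2, 41.3, 42.8 and 26.4 intensity units from ZT 0 to ZT 20 in TB livers, and 41.3, 37.1, 37.9, 35.98, 39.6 and 35.1 in WT livers. All TB arrays lay above all WT arrays at ZT 8 and below them at ZT 0 and ZT 20, as 3.54%, 2.2% and 3.3% of all genes did at these times. The amplitude was 0.26 ± 0.05 log2 with a peak at ZT 9.95 in TB (adjusted p = 0.00405) and 0.03 ± 0.05 log2 in WT (SE; adjusted p = 0.97, limma F test). The difference in rhythm had an adjusted p of 0.985 (limma F test), so the genotypes were not shown to differ. In the larger set alone the TB amplitude was 0.24 log2 with an adjusted p of 0.0771. The smaller set gave a TB amplitude of 0.32 log2.

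Serpinb8 and Serpinb9 were called in WT livers. Serpinb9, which protects cells from granzyme B, had means of 75.6, 107, 82.7, 73.1, 78.6 and 77.9 intensity units from ZT 0 to ZT 20 in TB livers. In WT livers they were 92.8, 100.2, 104, 91.2, 68.5 and 70.4. The amplitude was 0.15 ± 0.05 log2 in TB (adjusted p = 0.232) and 0.27 ± 0.05 log2 with a peak at ZT 5.94 in WT (SE; adjusted p = 0.00313, limma F test). Every WT array at ZT 0, 4, 8 and 12 lay above every WT array at ZT 16, which read 62.2 to 77.4. In the larger set alone the WT amplitude was 0.23 log2 with an adjusted p of 0.0798. The smaller set gave a WT amplitude of 0.35 log2.

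Serpinb8, among the dimmest genes, had means of 30.6, 36.1, 29.6, 25.0, 23.6 and 30.1 intensity units from ZT 0 to ZT 20 in TB livers, and 29.7, 43.9, 43.8, 34.1, 22.9 and 27.5 in WT livers. Its amplitude was 0.17 ± 0.05 log2 in TB (adjusted p = 0.119) and 0.31 ± 0.05 log2 with a peak at ZT 6.18 in WT (SE; adjusted p = 0.000467, limma F test). It stayed called in WT in the larger set alone, with an adjusted p of 0.00291. The smaller set gave a WT amplitude of 0.30 log2. For differential rhythm no serpin and no other gene passed. At an unadjusted p under 0.05 there were 5 serpins (9.26%), against 4.8% of all genes. The widest fitted amplitudes belonged to 2 genes that missed the threshold in both genotypes. Serpina4-ps1 had 0.86 ± 0.33 log2 in TB and 0.62 ± 0.33 log2 in WT (SE), with adjusted p of 0.267 and 0.563 (limma F test). Serpina7 had 0.54 ± 0.17 log2 in TB and 0.52 ± 0.17 log2 in WT (SE), with peaks at ZT 6.56 and ZT 5.77 and adjusted p of 0.129 and 0.137. In the larger set alone Serpina4-ps1 was called in TB, with an amplitude of 1.52 log2 (adjusted p = 0.0442); that set holds TB ZT 0 replicate 1, its lowest array. There Serpinh1 was called in WT, with an amplitude of 0.28 log2 (adjusted p = 0.00839). The smaller set gave 0.79 log2 for Serpina4-ps1 in TB, but with a peak at ZT 22.53 against ZT 13.81 in the larger set. For Serpinh1 in WT the smaller set gave 0.08 log2, with a peak at ZT 5.3 against ZT 21.19 in the larger.

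**Figure D3:**
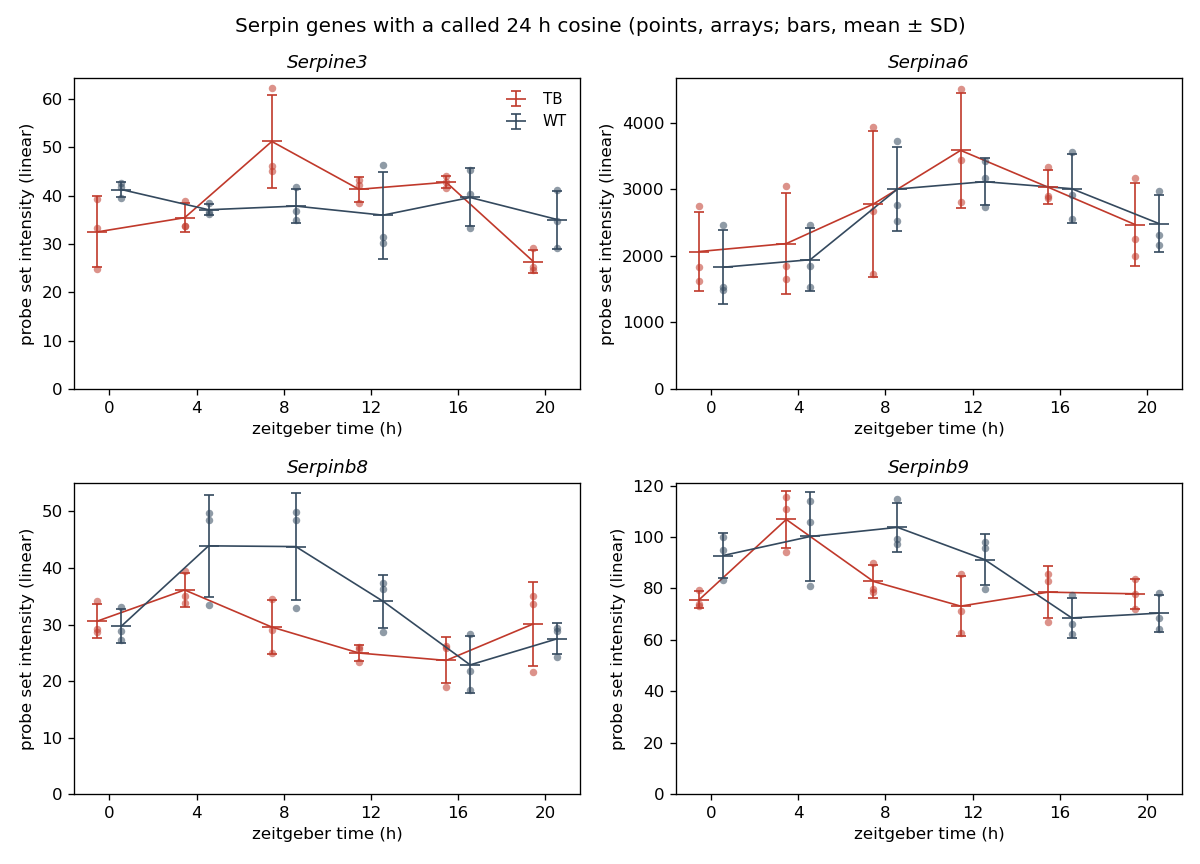
Intensity of the 4 serpin genes with a called 24 h cosine in every array by ZT, TB left of WT, with the mean and SD of 3 arrays per group and lines that join the means. Serpina6 peaks near ZT 13 in both genotypes, Serpine3 is highest at ZT 8 in TB, and Serpinb8 and Serpinb9 are highest at ZT 4 and 8 in WT.

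Replicates of 1 group differed widely in some serpins, and these were set against the acute phase response, the change in liver output that follows injury or infection. The score of an array was the mean over 21 acute phase genes, none of them a serpin, of its log2 deviation from its group mean, and the relation was added after the data were seen. It was computed for the 17 serpins with a mean over 200 intensity units, over 36 arrays, with p from 100000 permutations within groups and adjusted over the 17 relations. Serpina3n followed the score almost point for point, with Pearson r = 0.959 and Spearman rho = 0.942 (permutation p = 1e-05 each, the smallest these permutations can give; adjusted p of 0.000113 and 0.00017). Serpina10 had r = 0.894 and rho = 0.834, and Serping1 had r = 0.826 and rho = 0.788, each with adjusted permutation p of 0.000113 for r and 0.000227 for rho. Serpina11 had r = 0.789 and rho = 0.696, with adjusted permutation p of 0.00085 and 0.00187. Serpinf2 had r = 0.772 and rho = 0.712, with adjusted permutation p of 0.00167 and 0.00187. Of all genes, 0.518% reached r of 0.75 or more, against these 5 of 54 serpins (9.26%).

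For these 5 genes r was positive on both sides of each split. Without the 2 arrays farthest from the median score, WT ZT 12 replicate 1 and TB ZT 0 replicate 1, r lay between 0.705 for Serpinf2 and 0.942 for Serpina3n. Within TB arrays r was 0.923 for Serpina3n and 0.592 for Serping1, and within WT arrays 0.982 and 0.946. With the array set removed from the deviations, r ran from 0.758 (Serpina11) to 0.963 (Serpina3n). Within each array set r was taken on log2 values and scores not centred on group means, so genotype and ZT differences enter it. In the smaller set this r ran from 0.61 (Serpinf2) to 0.946 (Serpina3n), and in the larger from 0.726 (Serpinf2) to 0.972 (Serpina3n). The slopes differed: a score higher by 1 log2 went with 0.66 log2 more Serpina3n, 0.64 log2 more Serpina10 and 0.25 log2 more Serping1.

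Not every abundant serpin followed the score. The alpha-1-antitrypsin copies had r between -0.37 (Serpina1c) and 0.20 (Serpina1e), Serpinc1 had r = 0.228 and Serpind1 r = -0.03, with adjusted permutation p from 0.202 to 0.89. Some of these split by genotype: Serpind1 had r = -0.53 within TB arrays and 0.718 within WT arrays, and Serpina1a had r = -0.20 within TB arrays and 0.532 within WT arrays, differences that were not tested. Serpina1b had r = -0.28 over all arrays and 0.329 with the array set removed. Serpina4-ps1 ran the other way with r = -0.57 and rho = -0.53 (adjusted permutation p of 0.0115 and 0.0255). With the array set removed from the deviations its r was -0.53. Values not centred on group means gave -0.46 for the larger set and -0.01 for the smaller. Serpina6 had r = -0.50 and rho = -0.42 (adjusted permutation p of 0.0302 and 0.106). With the array set removed from the deviations its r was -0.32, weaker but still negative, and this value was not tested. Values not centred on group means gave -0.15 for the larger set and 0.25 for the smaller. Genotype and ZT differences enter those 2 values, so they cannot decide whether the relation held within sets.

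**Figure D4:**
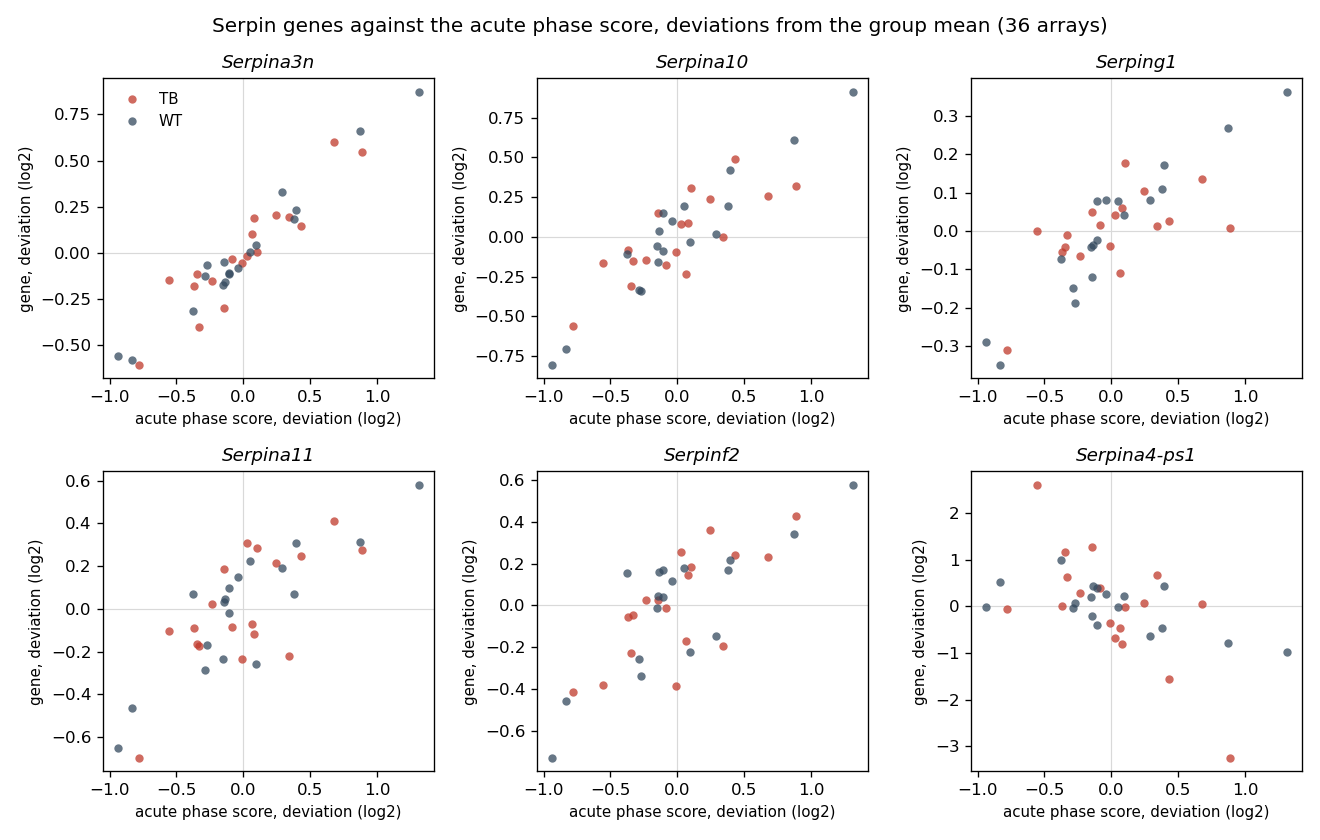
Deviation of 6 serpin genes from their group mean (log2) against the deviation of the acute phase score (log2), 1 point per array, TB and WT. Serpina3n lies closest to a line (r = 0.959), and Serpina4-ps1 falls with the score (r = -0.57) with TB ZT 0 replicate 1 far below the rest.

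Promoters are shown for the 3 of these 5 genes that the RefSeq table lists (GRCm38.p6, 250 bases before to 50 after the start), because these genes moved together: Serpina3n (chr12:104406458-104406757, plus strand), Serpina11 (chr12:103989908-103990207, minus strand) and Serpinf2 (chr11:75439452-75439751, minus strand). Capitals mark a match on either strand to the STAT palindrome TTCNNNGAA, to the E-box CACGTG of clock factors or to TTATGNAA. The last is a loose D-box pattern, in which N is any base. Serpina11 held the STAT palindrome, while Serpinf2 held none of the 3 motifs in this window. Serpina3n matched the loose D-box pattern on the opposite strand, as TTTCATAA on the strand shown.
Serpina3n: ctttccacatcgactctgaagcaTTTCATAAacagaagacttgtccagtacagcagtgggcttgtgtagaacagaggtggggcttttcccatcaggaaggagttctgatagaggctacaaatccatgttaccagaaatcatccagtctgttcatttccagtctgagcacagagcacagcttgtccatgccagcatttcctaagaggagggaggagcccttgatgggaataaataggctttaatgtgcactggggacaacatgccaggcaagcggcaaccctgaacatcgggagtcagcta
Serpina11: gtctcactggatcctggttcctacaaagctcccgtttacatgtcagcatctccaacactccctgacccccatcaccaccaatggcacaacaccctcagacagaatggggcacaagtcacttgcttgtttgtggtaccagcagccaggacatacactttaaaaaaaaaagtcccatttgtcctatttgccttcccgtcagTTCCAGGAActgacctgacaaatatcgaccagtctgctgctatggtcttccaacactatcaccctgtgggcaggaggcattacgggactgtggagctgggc
Serpinf2: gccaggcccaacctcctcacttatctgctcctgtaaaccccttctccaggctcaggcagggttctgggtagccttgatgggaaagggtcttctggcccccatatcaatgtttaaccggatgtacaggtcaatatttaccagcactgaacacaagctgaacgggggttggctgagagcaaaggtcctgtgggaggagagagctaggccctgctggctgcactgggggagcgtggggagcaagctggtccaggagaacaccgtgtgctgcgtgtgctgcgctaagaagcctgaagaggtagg

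Across the 47 members with a promoter in the table, 6 (12.8%) held the STAT palindrome, against 8.3% of all 32851 promoters. Each member was counted by its first listed promoter, whereas the share of all counted every listed promoter, so the 2 shares are not fully alike. The loose D-box pattern was in 2 members (4.26%), against 3.38% of all, and a stricter form was not searched. The E-box was in 0 members, against 7.15% of all. The motifs do not overlap in these windows. A match describes letters only.

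Among the 17 abundant serpins, deviations from the group mean formed 2 blocks over the 36 arrays, given here as a description. Serpina3n, Serpina10, Serping1, Serpina11 and Serpinf2 had pairwise r between 0.677 and 0.927. Serpina1b, Serpina1c, Serpina1d and Serpina6 had pairwise r between 0.679 and 0.818, and r between the blocks lay between -0.75 and -0.14. The arrays share the 2 sets described above, and with the set removed the first block kept r between 0.699 and 0.895, whereas pairs of the second lay between -0.24 and 0.26. Serpina6, Serpina1b, Serpina1c and Serpina1d were higher in the smaller set by 0.53, 0.16, 0.15 and 0.16 log2, and Serpinf2, Serpina10, Serpina11 and Serping1 lower by 0.49, 0.45, 0.39 and 0.17 log2 (adjusted p at most 0.0191, limma). In all, 10 serpins were higher and 6 lower in the smaller set, or 18.5% and 11.1%, against 17% and 13.6% of all genes.

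**Figure D5:**
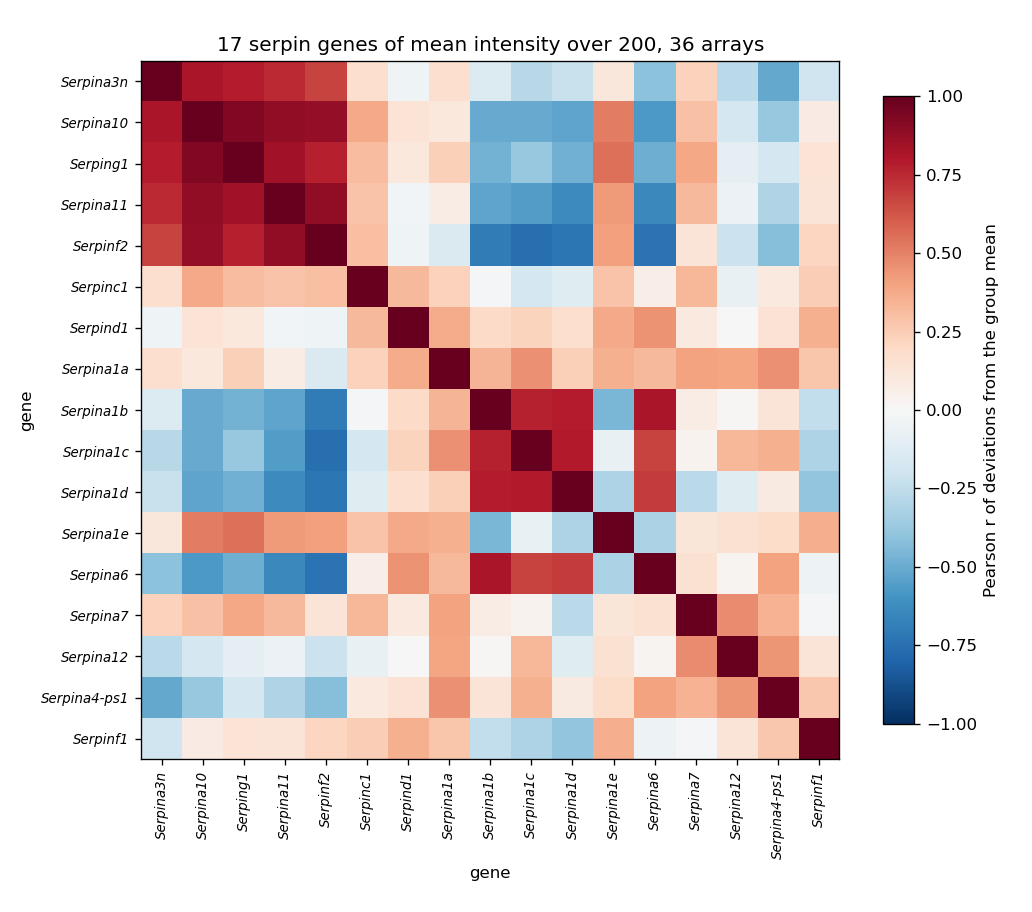
Pearson r between the 17 serpin genes of mean intensity over 200, from log2 deviations from the group mean over 36 arrays (red above 0, blue below). The red block at the top left holds Serpina3n, Serpina10, Serping1, Serpina11 and Serpinf2 (r from 0.677 to 0.927), and the red block of Serpina1b, Serpina1c, Serpina1d and Serpina6 is the one that goes when the array set is removed.

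The proteases and partners of the blood serpins were described by a list of 40 measured genes. Of these 30 were higher and 10 lower in TB, with a median difference of 0.07 log2, where 11943 of all 22180 genes were higher. Only 1 passed the test for the genotype difference (0.176% of all genes did). This was Elane, neutrophil elastase, the target of alpha-1-antitrypsin and Serpinb1a, which rose by 0.26 ± 0.06 log2 (SE; adjusted p = 0.0442, limma) with means of 43.3 intensity units in TB and 33.3 in WT. Prtn3, proteinase 3, had means of 119 intensity units in TB and 38.4 in WT, a difference of 1.52 ± 0.35 log2 with an adjusted p of 0.0652. F2, prothrombin, the target of antithrombin, differed by 0.05 ± 0.04 log2, and Plg, plasminogen, by 0.13 ± 0.05 log2 (SE; adjusted p = 0.267). By the cosine fit F3, tissue factor, was called in both genotypes and F11, factor XI, in WT with an amplitude of 0.36 log2 and a peak at ZT 6.48.

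Of all 22180 genes, 11943 were higher in TB and 39 (0.176%) passed the test. Of the 21 acute phase genes, 20 were higher and 3 passed. Mt2 and Lcn2, a metallothionein and a siderophore-binding protein, rose by 2.06 and 1.84 log2 (adjusted p of 0.0378 and 0.0442, limma). Fgl1, a fibrinogen-like protein, rose by 1.31 log2 (adjusted p = 0.0461, limma). Of the 12 genes around STAT3, the transcription factor downstream of the interleukin-6 receptor, 11 were higher in TB. There 1 passed, Il6st, the shared signalling subunit of that receptor, which rose by 0.36 ± 0.07 log2 (SE; adjusted p = 0.0168). Stat3 itself was at 953 intensity units in TB and 706 in WT, with a difference of 0.44 ± 0.11 log2 and an adjusted p of 0.0961.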

How the data were processed

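Liver RNA of mice was measured on 36 Affymetrix arrays of 1 colour. The deposited values are probe set intensities on a linear scale for 41345 probe sets, made by the authors with Affymetrix Expression Console 1.1.1 and PLIER 2.0, per the submitters' processing notes. No source used here gives the settings of these tools or how arrays were normalized to each other. A total count does not exist for arrays, and the 3 arrays per group limit the precision. Of the probe sets, 23521 had 1 gene symbol, 1814 several and 16010 none, and 23328 of the first (99.2%) matched the RefSeq gene table of GRCm38.p6 by identifier. The serpin members, gene lists and tests were chosen with earlier results of these data known.

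Values were taken as log2(intensity + 16), which understates changes of dim genes, with no further normalization and no filter. All 22180 genes were fitted with limma 3.58.1 in R 4.3.3 (12 group means; a mean, cosine and sine of 24 h per genotype), with Benjamini-Hochberg adjustment over all genes and a threshold of 0.05. Contrasts were two-sided, and groups of terms were tested with F. In a test on simulated data made from these arrays, 190 of 200 genes changed by 0.5 log2 were recovered for the genotype difference, a size that exceeds most serpin differences. Of 200 rhythmic genes with an amplitude of 0.4 log2, 171 were recovered in TB and 169 in WT. The changed genes were drawn at random, with independent noise and no array sets, so these shares do not carry over to serpins that vary more. Serpina11, Serpina3n and Serpina7 had an SD within groups of 0.34, 0.40 and 0.59 log2, against a median of 0.18 log2 for all genes. The members named in the text are those past the threshold in any test, a fixed list of blood and tissue serpins, and the 4 with the smallest p in each test without a call. From other lists the genes past the threshold and up to 4 more were named. The members at unadjusted p under 0.05, the dim clade A, B and I genes, Serpina4-ps1 and Serpina16 were named beyond this, after their values were seen. Array sets were found from the first component of deviations from group means of the 16010 probe sets without a symbol. Other settings were quantile normalization, a pseudocount of 1, median centring, the 7393 dimmest genes left out, the mean of probe sets, the replicate number or array set as a block, same-numbered TB and WT arrays of a ZT as pairs (added after the data were seen), the larger set only, a variance trend, a 6-level time factor, the 6 arrays of a ZT, and each array left out in turn. Motifs were searched and figures drawn with Python 3.11.15, numpy 2.4.6 and matplotlib 3.10.9.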

Additional observations from a re-analysis of the deposited data

Results flagged for a closer look

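In 3 serpins all TB arrays lay above all WT arrays at 1 ZT and below them at another, a pattern that 5.56% of the members and 3.46% of all genes showed. The test of the difference between times gave an adjusted p of 1 for each (limma F test). Serpine3 was above at ZT 8, with 45.1 to 62.4 intensity units in TB and 34.9 to 41.8 in WT, and below at ZT 0 and ZT 20 (unadjusted p = 0.0105, adjusted p = 1). Serpinb13, dim throughout, was above at ZT 0, with 8.52 to 9.69 intensity units in TB and 1.49 to 8.43 in WT, and below at ZT 4 and ZT 20 (unadjusted p = 0.279, adjusted p = 1). Serpinb3a, with no array above 4.71 intensity units, was above at ZT 4 and ZT 16 and below at ZT 20 (unadjusted p = 0.28, adjusted p = 1).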

How the results depend on the processing

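The count of serpins called for the genotype difference, 0 at first, was 2 with the array set as a block and 2 in the larger set only (Serpina11 and Serping1 in both), 1 with the replicate block within each ZT (Serpina11), and 0 to 3 with each array left out in turn. Over all genes that test called 39, against 15 with a pseudocount of 1, 151 with the array set as a block, 1152 in the larger set only, 59 with the replicate block within each ZT, 22 without the 2 arrays that stand apart, and 11 to 109 with single arrays left out. At ZT 8, 1 gene passed, against 0 to 28 in other settings, the most in the larger set only. Serpins rhythmic in TB, 2 at first, were 1 with a pseudocount of 1 (Serpine3), 1 with the replicate block (Serpine3), 4 with the array set as a block (Serpina6, Serpinb12, Serpinb6b and Serpine3), 1 with the 6-level time factor (Serpine3), and 1 to 4 with single arrays left out, the highest without TB ZT 20 replicate 2. With quantile normalization or median centring the 2 were Serpine3 and Serpinb6b. Over all genes the 6-level factor called 482 in TB and 596 in WT, against 1099 and 1431 by cosine, while the array set as a block called 1660 and the fit without the 2 arrays that stand apart 1661 in TB. In the larger set only they were Serpina4-ps1 and Serpina6, without Serpine3. Serpins rhythmic in WT numbered 2 to 4 in each of these settings, which do not include the smaller set alone, with its 1 array per group. Serpinf2 was added under the array set as a block, and Serpinh1 took the place of Serpinb9 in the larger set only. Serpina6 was lost under the 6-level time factor. Serpin counts for single ZT, dependence on time and differential rhythm were 0 in all of these settings. The causes were not tested. Same-numbered TB and WT arrays correlated over 0.1 in 14 of 18 pairs (r from -0.05 to 0.413), and 12 of 18 TB arrays correlated best with their own number; the array sets also follow the numbers at each ZT. Since not every pair was over 0.1 and no label ties the numbers to a shared source, whether they pair samples stayed unsettled. The replicate number as 1 block over all ZT lost Serpina6 in TB and changed no other serpin call. Dim probe sets, 23 of 54 members, limit what can be said of clade B.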

Other observations

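The probe sets that name a serpin beside another gene, and the second probe set of Serpinb9b, were not among the members. The set annotated to both Serpinb10 and Serpinb2 had means of 15.1 intensity units in TB and 16.3 in WT, with adjusted p of 0.854 (limma). The second set of Serpinb9b had means of 32.5 intensity units in TB and 30.8 in WT, and was not called either.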
